A study of Homo sapiens with 3 samples.

Results

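The lactate dehydrogenase genes LDHA, LDHB, LDHC and LDHD were followed by gene symbol in RNA-seq profiles of a liver cancer cell model, and the 4 genes were found among 25270 listed symbols. HepG2 is an established human liver cancer line, which the study describes as hepatocellular carcinoma. HepG2/wild is the untreated parental line, HepG2/metR is a line kept from HepG2 cells that survived metformin, an inhibitor of respiratory complex I, for more than 5 months, and HepG2/metR+oxamate is the same line after 24 h with 40 mM oxamate, a pyruvate analogue that inhibits lactate dehydrogenase. The study used HepG2/metR as a model of high glycolysis and high lactate, and oxamate to lower its lactate. There was 1 library of each kind, so no difference below has a replicate check and no p-value is given. Both comparisons use the HepG2/metR library. The labels do not say whether HepG2/metR is a clone or a mixed population, or whether metformin was present at harvest.

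Lactate dehydrogenase joins pyruvate and NADH to lactate and NAD+, which lets glycolysis run on when the NADH is not oxidized by mitochondria. The enzyme is a tetramer of subunits encoded mainly by LDHA, the muscle-type subunit suited to making lactate from pyruvate, and LDHB, the heart-type subunit suited to using lactate. LDHC encodes a subunit otherwise known from the testis, and LDHD a mitochondrial enzyme of another family that oxidizes D-lactate. Liver cells normally hold mostly LDHA. LDHA is a well-known target of the hypoxia-inducible factor HIF-1 and of MYC.

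Values are FPKM, fragment counts scaled by the length of the transcript and the size of the library, obtained from deposited values of the form log2(FPKM + 1). A log2 change is a difference of deposited values, and its pseudocount of 1 understates the change of low genes. The FPKM summed to 562382 in HepG2/wild, 534646 in HepG2/metR and 473773 in HepG2/metR+oxamate. Read numbers are not given in the sources used here. From low values of genes with 1 long transcript, about 23000000, 28000000 and 29000000 fragments were estimated for the same libraries. The worth of 1 fragment was taken as the peak of FPKM times length within a preset range, which bounds these estimates. All 4 genes passed the filter on low values, an FPKM averaging 1 or more across libraries, as did 12210 genes in all. LDHB and LDHC passed through the HepG2/metR libraries alone and LDHD through HepG2/wild alone, so a difference is built into their passing.

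The libraries differed widely beyond these genes. All 15 hepatocyte markers, among them ALB and HNF4A, were lower by 2-fold or more in HepG2/metR, where their summed FPKM was 15.4 against 33437 in HepG2/wild and 13.1 in HepG2/metR+oxamate. Of the 15, 13 were under 1 FPKM in HepG2/metR, and APOA1, TTR, FGA and FGG were among those listed at 0. Of 12 mesenchymal markers, 9 were kept. In HepG2/metR 5 of them were at least 2-fold higher (VIM, ZEB2, TWIST1, SNAI2 and THY1) and 1 (FN1) lower. Of all genes kept, 16.6% were higher and 17.6% lower by this rule. The 5 passed the filter through the HepG2/metR libraries, so a difference is built into their passing. COL1A1, COL1A2 and COL3A1, not kept, went from 1.22, 0.141 and 0.231 FPKM in HepG2/wild to 0.494, 0.0129 and 0.191 in HepG2/metR. The median log2 change of the list was 2.10 with the filter and 0.39 without it. The summed FPKM of the markers was 1549 in HepG2/wild, 1737 in HepG2/metR and 1361 with oxamate. Most of it was FN1 in HepG2/wild, at 1503 FPKM, and VIM in HepG2/metR and with oxamate, at 1576 and 1140. All 5 haematopoietic markers were under 1 FPKM in HepG2/metR. In a list of 4 genes of frequent deletions, CDKN2A, CDKN2B and MTAP were listed at 5.76, 3.90 and 15.3 FPKM in HepG2/wild and at 0, 0 and 0.00714 in HepG2/metR, while GSTM1 stood at 0.0423 and 33.8. Selection by metformin and a different origin of the cultures cannot be told apart for any value that sets HepG2/metR beside HepG2/wild, those of the lactate dehydrogenase genes included.

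LDHA was the predominant lactate dehydrogenase mRNA of HepG2/wild, at 642 FPKM, and stood at 1150 FPKM in HepG2/metR and 823 in HepG2/metR+oxamate. It was 1.79 times as high in HepG2/metR as in HepG2/wild, a log2 change of 0.84 that lies under the 2-fold rule of the study. By level it ranked 128th of all listed genes in HepG2/wild, 75th in HepG2/metR and 91st with oxamate. Its change was larger than that of 80.3% of the 12210 genes kept.

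LDHB was close to absent from HepG2/wild, at 0.298 FPKM, and was listed at 983 FPKM in HepG2/metR and 712 in HepG2/metR+oxamate. The low parental value corresponds to about 9 fragments by the estimate above, against about 36169 in HepG2/metR. The log2 change of 9.57 understates the ratio of the FPKM values, which was 3301. None of the 23208 listed genes other than small RNAs and symbols turned into dates had a larger log2 change. Of them 21, LDHB included, were under 1 FPKM in HepG2/wild and at 100 or more in HepG2/metR. LDHB ranked 12656th by level in HepG2/wild and 87th in HepG2/metR.

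LDHC was listed at 0 in HepG2/wild, at 4.33 FPKM in HepG2/metR and at 3.61 in HepG2/metR+oxamate, a log2 change of 2.42 between the untreated lines. The HepG2/metR level corresponds to about 154 fragments. LDHD went the other way, from 5.00 FPKM in HepG2/wild to 0.208 in HepG2/metR and 0.240 with oxamate, a log2 change of -2.31. The parental level of LDHD corresponds to about 228 fragments, and the HepG2/metR level to about 12. Of the 4 genes, LDHB and LDHC were thus higher by 2-fold or more in HepG2/metR and LDHD was lower. Over all genes kept, 16.6% were higher and 17.6% lower by this rule. The order of levels was LDHA, LDHD, LDHB and LDHC in HepG2/wild, and LDHA, LDHB, LDHC and LDHD in both HepG2/metR libraries. With 1 library each, neighbours in that order cannot be set against a spread between replicates.

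The coding sequences bear on whether reads of these genes could be exchanged. In GENCODE release 29 the main transcripts of LDHA and LDHB were 68.1% identical over their coding parts, with a longest identical run of 17 bases, and LDHA and LDHC were 76.1% identical, with a longest run of 22 bases. LDHD was 36.6% identical to LDHA in the same alignment. The most alike ungapped 60 bases of LDHA and LDHB are shown here, at coding bases 571 to 630 of LDHA and 574 to 633 of LDHB, with the 10 bases that differ in capitals.
LDHA: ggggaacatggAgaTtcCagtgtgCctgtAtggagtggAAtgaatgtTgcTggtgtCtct
LDHB: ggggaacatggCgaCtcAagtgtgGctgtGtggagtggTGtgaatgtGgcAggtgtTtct
No run of 50 bases was shared between transcripts of any pair of the 4 genes. Of the distinct 50-base words of LDHA, 4.03% occurred in transcripts of other genes, with the pseudogene LDHAP4 holding the most. For LDHB it was 29.4%, nearly all in the gene model AC010197.2. LDHC and LDHD shared none. No pseudogene of LDHA or LDHB is listed in the files under a symbol starting LDHAP or LDHBP (0 symbols), so how reads shared with them were assigned is not known.

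The LDHA to LDHB ratio of FPKM is formed within a library, without a pseudocount, and is free of the scaling between libraries. It was 2156 in HepG2/wild, 1.17 in HepG2/metR and 1.16 in HepG2/metR+oxamate. LDHB made up 0.0464% of the LDHA plus LDHB mRNA in HepG2/wild, 46.1% in HepG2/metR and 46.4% with oxamate. The sum of LDHA and LDHB was 642 FPKM in HepG2/wild, 2133 in HepG2/metR and 1535 in HepG2/metR+oxamate, which is 3.32 times and 2.39 times the parental sum. LDHB accounted for 65.9% of the difference between the HepG2/metR and HepG2/wild sums. The parental ratio rests on the few LDHB fragments of that library and is the least certain of the 3. Its log2 value was 11.07, against a difference of 8.95 between the deposited values of LDHA and LDHB, which hold the pseudocount.

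With oxamate both main genes were lower by nearly the same factor. LDHA was at 0.716 times and LDHB at 0.724 times its level in untreated HepG2/metR, log2 changes of -0.48 and -0.46, and the log2 LDHA to LDHB ratio moved by -0.017. The log2 change was -0.21 for LDHC and 0.04 for LDHD. A 1.5-fold difference, the rule for oxamate in the methods of the study, is 0.58 on this scale. By it 0 of the 4 genes passed, where 3.82% of the genes kept passed downwards and 4.3% upwards. Of the genes kept, 6.28% had a lower change than LDHA and 6.87% a lower one than LDHB. The genes the paper used to normalize its qRT-PCR, ACTB and EMC7, had log2 changes of -0.52 and -0.07. The fall of ACTB was thus larger than those of LDHA and LDHB, and that of EMC7 smaller. In oxamate-treated cells LDHA remained above its HepG2/wild level by 0.36 on the log2 scale, and LDHB by 9.10.

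**Figure D1:**
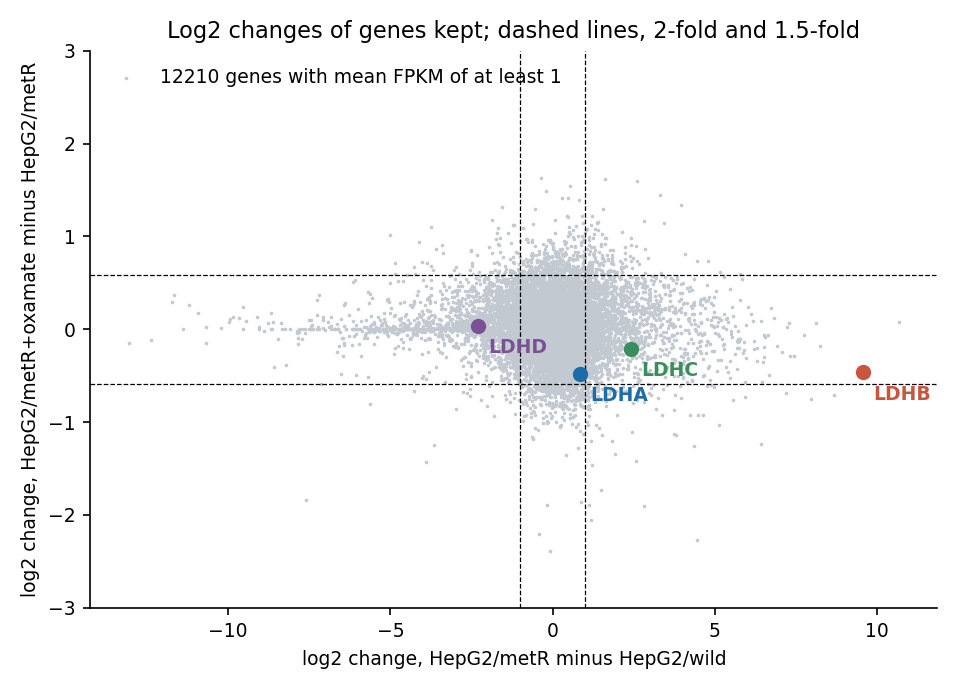
Log2 change in HepG2/metR against HepG2/wild (horizontal) and with oxamate against untreated HepG2/metR (vertical) for 12210 genes, with the 4 lactate dehydrogenase genes in colour. Dashed lines mark 2-fold and 1.5-fold, and 34 genes lie outside the vertical range of 3. LDHB stands at the far right, and no lactate dehydrogenase gene lies beyond a horizontal line.

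The oxamate values depended on the scaling in size but not in direction. With libraries brought to the same total FPKM the log2 change was -0.31 for LDHA and -0.29 for LDHB, while the median of all genes kept moved from 0.02 to 0.17. Centred on 11 reference genes, ACTB and EMC7 among them, the values were -0.31 and -0.30. The reference genes themselves had a median log2 change of -0.26 with oxamate and of 0.14 in HepG2/metR against HepG2/wild, where 1 of the 11 (CHMP2A) was at least 2-fold higher, and 10 of the 11 were below zero with oxamate. Relative to the median of all genes LDHA lay between -0.52 and -0.47 under the deposited and all other pseudocounts and scalings tried. Among the genes past 1.5-fold with oxamate, 53.0% were higher with the deposited scaling, 49.3% with median-of-ratios size factors, 63.9% with upper-quartile scaling, 86.0% with equal totals, 88.2% with equal totals without small-RNA genes and 85.5% when centred on the reference genes. It was 62.6% with a pseudocount of 0.1 and 64.1% with none.

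**Figure D2:**
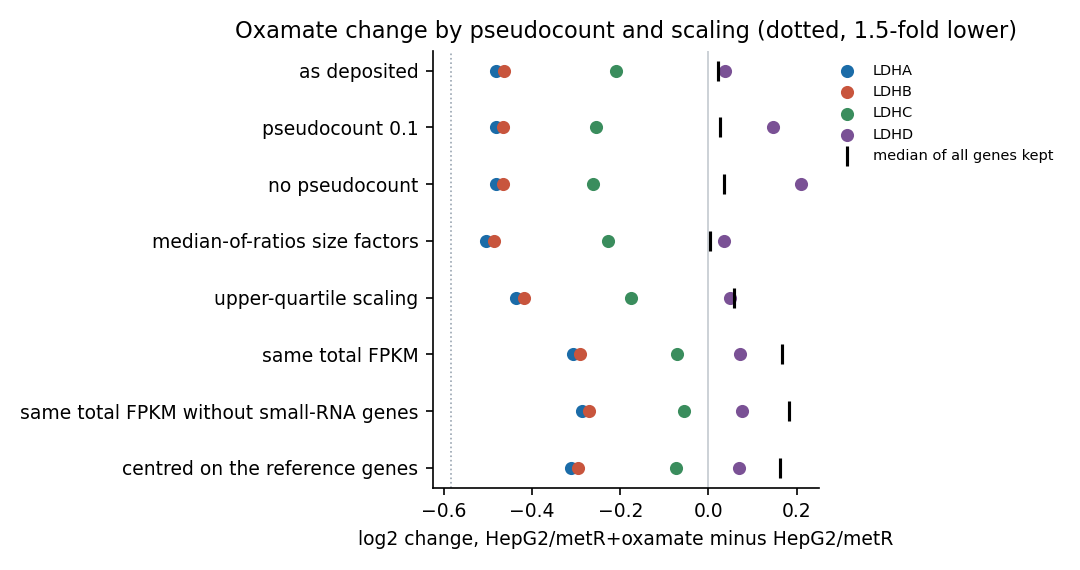
Log2 change with oxamate of the 4 lactate dehydrogenase genes (coloured points) and the median of the genes kept (black ticks) with the deposited values and under 7 other pseudocounts or scalings. LDHA and LDHB, which a scaling shifts alike, range from -0.50 to -0.27 and stay to the right of the dotted 1.5-fold line. The median of all genes shifts between 0.00 and 0.18.

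The upstream sequences are shown as a description of the genes. They come from the reference genome and not from these cells, and any link to the levels above was not tested. RefSeq windows of 250 bases before the start were found for 3 of the 4 genes (build GRCh38.p14, whereas the submitters' processing notes name hg19), and they are printed on the strand of the gene. Capitals mark ACGTG on either strand (ACGTG or CACGT), a form of the core of the hypoxia response element bound by HIF-1. ACGTG overlaps the E-box CACGTG bound by MYC and MAX. Other forms of the core were not searched, so the counts below cover ACGTG only. The windows are chr11:18394313-18394562 on the plus strand for the first start of LDHA, chr12:21657843-21658092 on the minus strand for LDHB and chr11:18412068-18412317 on the plus strand for LDHC.
LDHA: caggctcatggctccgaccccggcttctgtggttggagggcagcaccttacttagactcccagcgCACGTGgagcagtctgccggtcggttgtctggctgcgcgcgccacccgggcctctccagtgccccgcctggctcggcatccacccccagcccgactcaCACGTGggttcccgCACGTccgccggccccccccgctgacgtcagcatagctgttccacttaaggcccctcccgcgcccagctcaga
LDHB: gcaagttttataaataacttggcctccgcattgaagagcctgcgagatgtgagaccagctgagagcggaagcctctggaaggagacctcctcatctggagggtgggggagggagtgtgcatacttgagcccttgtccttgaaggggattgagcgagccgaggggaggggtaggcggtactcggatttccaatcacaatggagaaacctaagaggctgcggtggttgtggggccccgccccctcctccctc
LDHC: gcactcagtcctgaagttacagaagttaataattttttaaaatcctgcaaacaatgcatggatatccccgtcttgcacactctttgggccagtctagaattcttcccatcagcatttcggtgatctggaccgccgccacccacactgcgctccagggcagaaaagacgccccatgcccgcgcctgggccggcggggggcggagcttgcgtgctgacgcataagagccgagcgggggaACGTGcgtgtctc
The first LDHA window held 5 matches over both strands, since each of its 2 copies of the palindrome CACGTG matches on both, the LDHC window 1 and the LDHB window 0. A second LDHA start, not printed, held 0. Of all 35116 windows of this length, 18.5% held ACGTG on either strand and 6.34% held CACGTG. CpG dinucleotides numbered 22 in the first LDHA window, 25 in the second, 17 in LDHC and 9 in LDHB, with a median of 11 over all windows.

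The regulators of LDHA transcription were read from a list of 9 genes. HIF1A, the oxygen-regulated subunit of HIF-1, was listed at 70.7 FPKM in HepG2/wild, 85.1 in HepG2/metR and 95.3 with oxamate, and MYC at 79.3, 74.7 and 46.7. Of these, 8 were kept, and in HepG2/metR 0 were at least 2-fold higher and 2 lower, namely EPAS1, which encodes HIF-2 alpha, from 55.95 to 1.19 FPKM, and PPARGC1A, a coactivator of mitochondrial genes, from 3.77 to 0. With oxamate MYC was the 1 regulator at least 1.5-fold lower, at a log2 change of -0.67, and 0 were higher. The median of the list was -0.01 in HepG2/metR and 0.06 with oxamate, beside 0.02 for all genes kept in both comparisons. Counts of this list and the next stand beside 16.6% of all genes kept higher and 17.6% lower in HepG2/metR. By the 1.5-fold rule for oxamate, 4.3% of all genes kept were higher and 3.82% lower. Of 14 genes that HIF activates, 11 were kept, 3 were higher by 2-fold or more in HepG2/metR (ADM, ANKRD37 and PFKFB3) and 1 lower (SLC2A1, the glucose transporter GLUT1, from 261 to 37.9 FPKM), with a median of -0.06. With oxamate 2 of them were at least 1.5-fold lower, PDK1 and BNIP3, 0 were higher, and the median was -0.22. With equal totals or centring on the reference genes, MYC, PDK1 and BNIP3 did not pass 1.5-fold, nor did BNIP3 with upper-quartile scaling. Under equal totals and under that centring, 1 HIF target was at least 1.5-fold higher with oxamate, and the median of the HIF targets was -0.06.

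The enzymes that bring glucose to pyruvate were read from a list of 17 genes, of which 16 were kept. Beside the 16.6% and 17.6% of all genes kept, 5 in HepG2/metR were 2-fold or more above HepG2/wild, 2 were lower and 9 passed in neither direction, with a median log2 change of 0.38. PKM, the pyruvate kinase that supplies lactate dehydrogenase in most cells, stood at 428, 1220 and 933 FPKM in HepG2/wild, HepG2/metR and HepG2/metR+oxamate. GAPDH, which makes the NADH that lactate dehydrogenase uses, stood at 2308, 4303 and 2720. With oxamate 7 of the 16 were at least 1.5-fold lower and 0 higher, beside 3.82% and 4.3% of all genes kept. Of the 16, 15 had a change below zero, and the median was -0.55, so LDHA at -0.48 lay above that median. The count of 7 rests on the scaling. With equal totals or centred on the reference genes, 1 of the 16 (PGAM1) was at least 1.5-fold lower. It was 0 with equal totals without small-RNA genes, and the medians were, in that order, -0.39, -0.39 and -0.37. PGAM1, phosphoglycerate mutase, went from 71.5 to 41.3 FPKM and was the lowest on the log2(FPKM + 1) scale, while the ratio of FPKM was lower for ALDOC, from 1.41 to 0.577.

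Isozyme shares in HepG2/metR also differed from HepG2/wild for other steps of glycolysis. LDHA remained the larger of its family, whereas HK2 and PFKL did not. Among the FPKM of hexokinase genes the share of HK1 was 3.23% in HepG2/wild, 72.2% in HepG2/metR and 78.1% with oxamate, the rest being HK2. Of the phosphofructokinase FPKM the share of PFKP was 7.57%, 75.9% and 77.9%, while that of the liver form PFKL was 91.2%, 12.6% and 9.76%. PKLR, the liver form of pyruvate kinase, went from 1.85% to 0 of its family, and in aldolase and enolase the leading genes ALDOA and ENO1 held from 96.6% to 99.8% in all libraries. With oxamate the share of LDHB among LDHA, LDHB and LDHC differed from untreated HepG2/metR by 0.277 percentage points, and that of HK1 by 5.91.

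**Figure D3:**
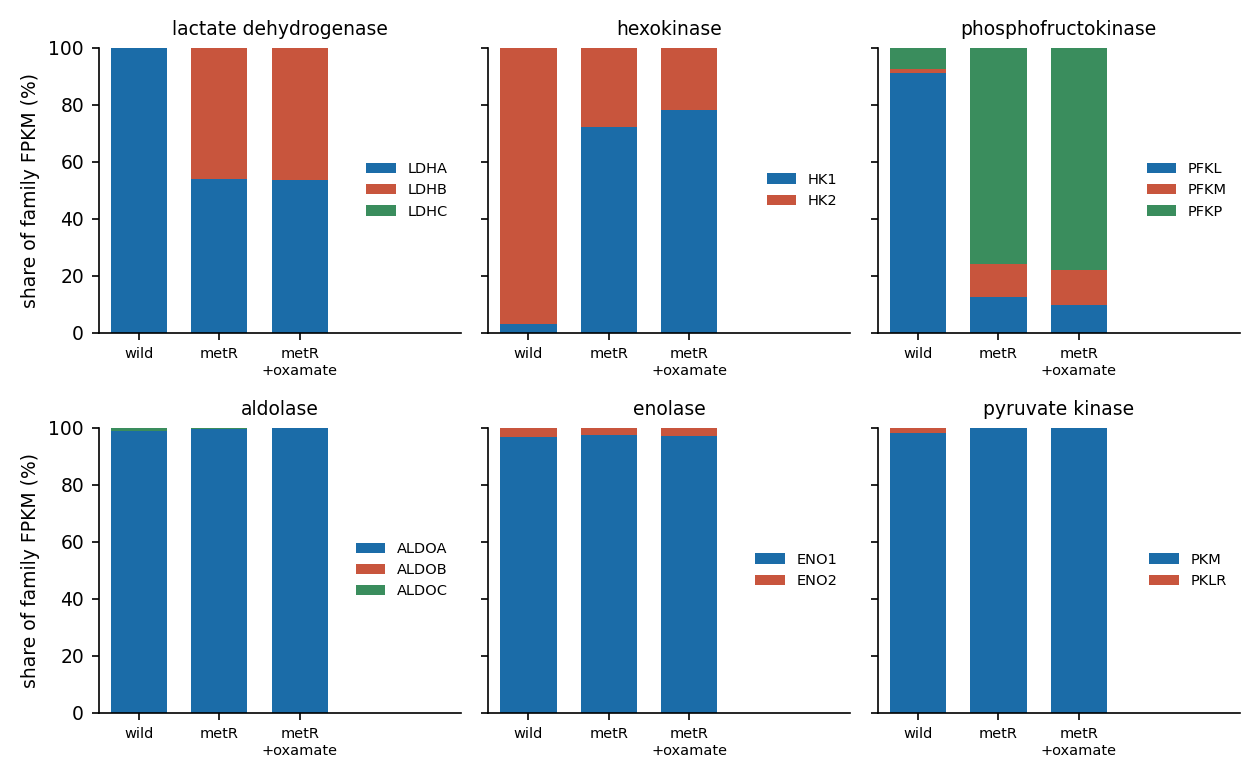
Share of each gene in the summed FPKM of its enzyme family (percent) in HepG2/wild, HepG2/metR and HepG2/metR+oxamate, 1 library per bar. LDHB goes from a share too thin to see to 46.0% of LDHA, LDHB and LDHC, HK1 to 72.2% and PFKP to 75.9%. HK1 and PFKP become the largest of their families, and LDHA, ALDOA, ENO1 and PKM stay the largest of theirs.

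Pyruvate can also enter mitochondria, and lactate can leave the cell. Of 16 genes of other pyruvate fates, 14 were kept, with 1 at least 2-fold higher in HepG2/metR, where 16.6% of all genes kept were (PDP1, a phosphatase that activates pyruvate dehydrogenase, from 1.73 to 17.6 FPKM), and 3 lower, where 17.6% were. These were MPC1, a subunit of the mitochondrial pyruvate carrier, from 139 to 9.32 FPKM, the pyruvate carboxylase gene PC from 16.7 to 4.81, and the transaminase gene GPT2 from 69.6 to 10.02. The median was -0.22, and -0.01 with oxamate, where PDP2 was at least 1.5-fold higher and PDK1 and PDK3, kinases that switch pyruvate dehydrogenase off, were lower. By that rule 4.3% of all genes kept were higher and 3.82% lower. Neither kinase passed 1.5-fold with equal totals or centred on the reference genes. Of 8 genes of lactate transport, 4 were kept. SLC16A3, which encodes the lactate exporter MCT4, was listed at 353, 215 and 119 FPKM, and was the 1 gene of that list at least 1.5-fold lower with oxamate, with 0 higher, and it passed under every scaling tried. SLC16A1, which encodes MCT1, was listed at 65.6, 68.4 and 54.2 FPKM. SLC16A7, which encodes MCT2, was the 1 gene at least 2-fold higher in HepG2/metR, from 0.721 to 7.34 FPKM, and 0 were lower. The medians were -0.30 in HepG2/metR and -0.28 with oxamate.

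LDHD was followed with the genes that make D-lactate from methylglyoxal, a by-product of glycolysis. GLO1, the first enzyme of that route, was listed at 94.95, 126 and 87.2 FPKM in HepG2/wild, HepG2/metR and HepG2/metR+oxamate, and HAGH, the second, at 27.4, 9.31 and 10.1. Of the 4 genes of the list, HAGH and HAGHL were lower by 2-fold or more in HepG2/metR and 0 were higher, with a median of -0.67. With oxamate 0 passed 1.5-fold, and the median was 0.05. The shares of all genes kept, for this list and the shuttle genes below, were 17.6% lower and 16.6% higher in HepG2/metR. For oxamate they were 3.82% and 4.3%. Among 9 genes of the shuttles that carry cytosolic NADH into mitochondria, an alternative to lactate dehydrogenase, GPD2 was at least 2-fold higher in HepG2/metR, from 0.0218 to 11.2 FPKM, and GPD1 and SLC25A13 were lower, GPD1 from 13.9 to 0.0601. Their median was -0.41, and -0.23 with oxamate, where 1 (GOT1) was at least 1.5-fold lower and 0 higher. GOT1 did not pass with upper-quartile scaling, equal totals or centring on the reference genes.

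**Figure D4:**
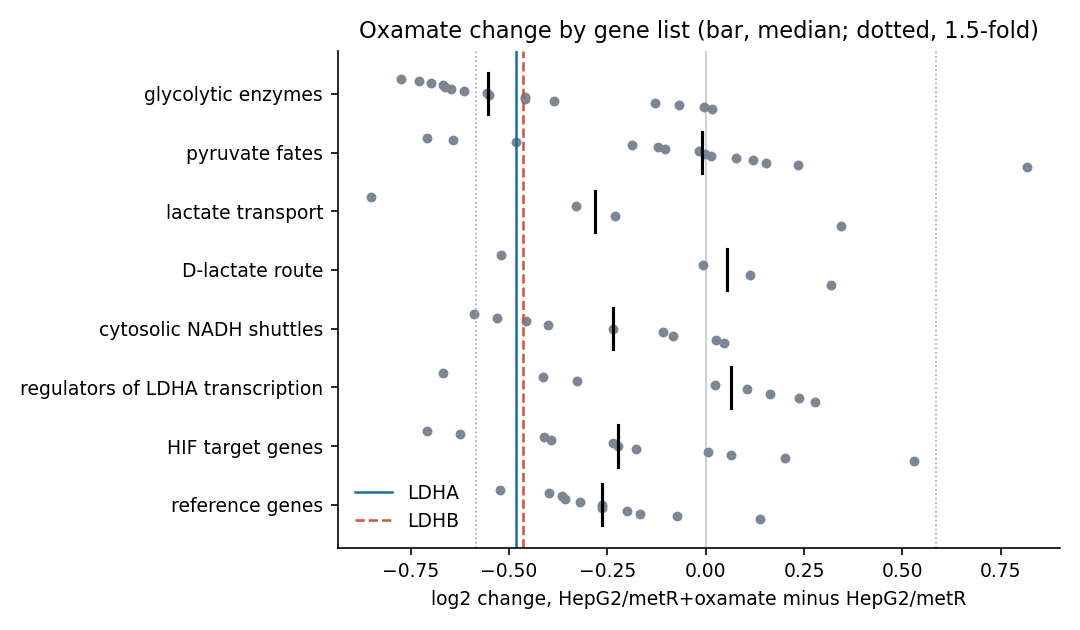
Log2 change with oxamate of the genes kept in each list drawn (points), with the list median (black bar), 1.5-fold (dotted lines) and the values of LDHA and LDHB (vertical lines). The glycolytic enzymes have the lowest median, -0.55, below LDHA and LDHB, and the other lists drawn have medians from -0.28 to 0.06.

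The remaining relatives of lactate dehydrogenase were low or moved little. UEVLD, whose product joins a ubiquitin-conjugating-like domain to a lactate dehydrogenase-like one, was listed at 6.49, 9.11 and 9.91 FPKM and was the 1 gene kept of 3, with log2 changes of 0.43 and 0.11, neither past the fold rule. LDHAL6A was listed at 0.138, 0.133 and 0.0559 FPKM and LDHAL6B at 0 in every library. LDHC was not accompanied by other metabolic isoforms of the testis. PGK2, GAPDHS, PDHA2 and LDHAL6B were at 0 in all 3 libraries, so 0 of those 4 were kept.

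The genes with the most similar pattern were taken by Euclidean distance over the 2 log2 changes, from 3 libraries, among genes kept other than small RNAs. For LDHB the nearest was VIM, the intermediate filament vimentin, at 1.23, 1576 and 1140 FPKM and a distance of 0.102. The next were SRGN, CAV1, FSTL1 and ANXA1, at distances from 0.934 to 1.62. For LDHA they were TPRKB, SAAL1, DDX11, RPA1 and RSL24D1, at distances of at most 0.0549, of which TPRKB was listed at 57.5, 103 and 73.8 FPKM. For LDHC they were ERCC6-PGBD3, ANKRD55, PLEKHA2, MAPK11 and DBNDD2, and for LDHD FAM20C, EXOC3L4, KREMEN1, JUND and RASD1. Likeness over so few libraries is a description of these values.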

How the data were processed

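Total RNA of 3 cell samples, 1 library per condition, was sequenced by the authors on an Illumina NextSeq instrument. The authors deposited 1 log2 value per gene symbol and library, taken here as log2(FPKM + 1), a unit inferred because the values are never negative and back-transform to numbers of at most 6 significant digits (100% of those above 1 FPKM). The submitters' processing notes name STAR 2.5.1b, FastQC 0.11.5, Cufflinks 2.2.1 and hg19, and the annotation and filters are not given in the sources used here. Values were used as scaled by the authors. FPKM was recovered as 2 to the power of the value minus 1, and genes averaging 1 FPKM or more across the libraries were kept. The 28 symbols turned into dates were not used by name.

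The fold rules, 2-fold for HepG2/metR and 1.5-fold for oxamate, follow the paper's methods. The results text of the paper names a 2-fold cut-off only. With 1 library per condition no test was run, and lists are described by counts and medians. The genes, lists and rules were chosen with earlier results of these data known. Genes named are the 4 lactate dehydrogenase genes, genes of the lists, the 5 most similar genes for each and 3 neighbours on each side in RefSeq gene order. The count of genes that shared the level range of LDHB, the isozyme shares and the comparison of sequences were chosen after the values had been seen. Fragments were estimated as FPKM times the length of the main transcript in GENCODE release 29, divided by the worth of 1 fragment. That worth was the peak of FPKM times length among low genes, sought only within a preset range. It rests on 19 to 30 genes per library and covers no effective-length correction. A peak made by more than 1 fragment would not have been recognized. The alternatives were 2 pseudocounts, 5 scalings, 2 filters and 2 fold rules. The calculation was tested on simulated data. Python 3.11, numpy 2.4.6, pandas 2.3.3 and matplotlib 3.10.9 were used.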

Additional observations from a re-analysis of the deposited data

How the results depend on the processing

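Every log2 change of LDHA, LDHB, LDHC and LDHD kept its direction and its side of the fold rule under the 2 pseudocounts and 5 scalings tried. The exception was LDHC, listed at 0 in HepG2/wild, which gave no value there without a pseudocount. The LDHA to LDHB ratios kept theirs too, but a scaling between libraries can move them only through the pseudocount, so it is no check of them. The log2 ratio in HepG2/wild was 11.07 without a pseudocount, 10.66 with 0.1 and between 8.86 and 8.97 under the scalings, which were taken with the pseudocount of 1. No paired analysis was possible because each condition had 1 library. LDHA came closest to crossing, at 0.99 with upper-quartile scaling against 1 for 2-fold. The size of the change of low genes depended on the pseudocount, as LDHD gave -4.05 with 0.1 and -4.59 with none, and LDHB 11.27 and 11.69. The counts of all genes past a rule moved more. Of 525 genes at least 1.5-fold higher with oxamate, there were 1018 with a pseudocount of 0.1, 1111 with none, 1184 with equal totals, 1289 with equal totals without small-RNA genes, 1148 centred on the reference genes, 271 at a mean FPKM of at least 5 and 66 at 2-fold. Of 466 genes lower, there were 192, 173 and 195 under those 3 scalings and 64 at 2-fold. Of 2021 genes higher and 2147 lower in HepG2/metR, 1249 and 1428 had a mean FPKM of at least 5, and 3262 and 3301 passed 1.5-fold. The median of the genes of frequent deletions was -2.53 and became 0.52 at a mean FPKM of at least 5, which leaves fewer of the 4 genes. The lower calls with oxamate among listed genes, except that of SLC16A3, also rested on the scaling, and most are given beside those genes. The hepatocyte marker SERPINA1 went from 11.2 FPKM in HepG2/metR to 7.10 with oxamate, past 1.5-fold as deposited. It did not pass with upper-quartile scaling, equal totals or centring on the reference genes. In HepG2/metR the 5 glycolytic enzymes higher were 6 and the 2 genes of the D-lactate route lower were 1 with upper-quartile scaling, and the 3 HIF targets higher were 2 when centred on the reference genes. Over list medians, 226 of the values under alternatives kept their side of the rule, 2 were weaker, 3 stronger and 1 reversed.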

Other observations

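In gene order LDHA and LDHC lie side by side on chromosome 11. GTF2H1, a subunit of the transcription factor TFIIH, went from 15.9 FPKM in HepG2/wild to 22.6 in HepG2/metR and 24.2 with oxamate, and TSG101 from 44.4 to 49.6 and 53.0. SAA1, which encodes the acute-phase protein serum amyloid A and lies 3 genes before LDHA, was listed at 0, 121 and 107 FPKM, and HPS5 was at 7.34, 12.6 and 19.8. Around LDHB on chromosome 12, GYS2, the liver glycogen synthase, KCNJ8 and ABCC9 were under 0.1 FPKM in every library (at most 0.0231, 0 and 0.0517), while CMAS, 3 genes after it, was at 24.8, 26.4 and 26.8 and GOLT1B, 3 genes before it, at 26.4, 42.8 and 42.0. SPX, a peptide hormone gene 2 genes before LDHB, stood at 0.227, 0.944 and 2.82 FPKM and was at least 1.5-fold higher with oxamate. Beside LDHD on chromosome 16, WDR59 and ZNRF1 were lower by 2-fold or more in HepG2/metR, from 27.6 to 11.9 and from 9.71 to 3.96 FPKM, and ZFP1 on the other side was at 5.99 and 5.01. FA2H, CTRB2 and CTRB1 were at most at 0.0746, 0.0611 and 0.126 FPKM.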
